A study of Mus musculus with 4 samples.

Results

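High glucose was applied to mouse podocytes that carried a short hairpin RNA against Jaml, and their transcriptome was set against that of the same cells without added glucose. The contrast rests on 2 of the 4 libraries of the study, sh-JAML/HG and sh-JAML, with 1 library on each side. Genes entered when their mean count over all 4 libraries was at least 50, which kept 14187 of the 56393 genes in the table. The cells were the line MPC, a conditionally immortalised mouse podocyte line. It is expanded at 33 °C in the presence of interferon-gamma, and it was differentiated at 37 °C for 7 days after that cytokine was withdrawn. The 4 groups were sh-NC (control hairpin), sh-NC/HG (control hairpin in high glucose), sh-JAML (Jaml hairpin) and sh-JAML/HG (Jaml hairpin in high glucose). High glucose meant D-glucose brought to 40 mmol/L in the medium, for 24 h according to the series design text, which counts 4 treated and 4 untreated samples where 4 libraries were analysed here. The labels name no osmotic control, and neither the number of hairpin sequences nor the number of cell clones is given. With 1 library per group there is no spread between samples, so no difference below was tested and every ratio describes 2 libraries.

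Podocytes are the epithelial cells that cover the outer side of the glomerular capillary and hold the filtration barrier with interlocking foot processes. Glucose that enters them is phosphorylated and used in glycolysis, or diverted into the polyol and pentose phosphate pathways, and a high level in the medium also draws water from cells. JAML is a junctional adhesion molecule-like membrane protein best known on leukocytes, where it binds the coxsackie and adenovirus receptor. In podocytes it has been connected with lipid handling through the deacetylase SIRT1 and the sterol regulatory element binding proteins, the transcription factors that drive cholesterol and fatty acid synthesis.

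Jaml itself (chromosome 9, 45079183 to 45108534, GRCm38) had a count of 0 in all 4 libraries. A count of 0 allows a level of up to 0.150 CPM, the count scaled to the library total, in sh-JAML and up to 0.142 CPM in sh-JAML/HG, so the hairpin's effect on its target could not be seen at this depth. The library totals ran from 79330461 to 94341975 units, of which 4 were taken as about 1 sequenced fragment. This was inferred from the values and is not stated by the submitters. Per library, 23148 to 23736 genes were above 0. Where 4 levels of a gene are listed, their order is sh-NC, sh-NC/HG, sh-JAML, sh-JAML/HG. The pair described here had totals of 79330461 (sh-JAML) and 83551812 (sh-JAML/HG). Of the podocyte markers listed, 22 of 32 were measured, with a summed level of 7426, 6672, 6767 and 6477 CPM. The line fell short of the marker list at defining genes. Tcf21 and Cldn5 were at 0 in all 4 libraries, Nphs1, which encodes nephrin of the slit diaphragm, had counts of 35, 18, 18 and 17, and Wt1, a podocyte transcription factor, stood at 1.17, 0.632, 0.959 and 0.957 CPM.

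High glucose left most transcripts of the Jaml-hairpin cells near their starting level. Ratios are given as sh-JAML/HG over sh-JAML on TMM-scaled CPM, a scaling that assumes most genes are alike between libraries. On the log2 scale the quartiles were -0.13 and 0.11, and 11530 of 14187 genes (81.3%) lay within 1.25-fold of each other. A ratio of 2-fold or more was found for 408 genes (2.88%), of which 186 (1.31%) were higher and 222 (1.56%) lower in sh-JAML/HG. Above the basal library by any amount were 49.9% of the genes. In the control-hairpin pair, which shares no library with this one, 7.92% of the same genes were 2-fold or more apart, 4.65% higher and 3.27% lower in high glucose, and the quartiles were -0.23 and 0.24. Of the genes in that pair, 50.2% were above and 49.8% below their basal level.

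Most of the genes 2-fold or more apart were weakly counted. Among genes with a mean count of 50 to 100, 15.6% (188 of 1209) were apart, against 0.522% (19 of 3643) of those at 6400 or more, and the plot of ratio against level shows the same funnel. The median mean count was 111 for the higher genes and 123 for the lower ones, against 2626 over all genes. Each ratio named below carries an exact 95% Clopper-Pearson interval that covers counting error only. That interval lay wholly beyond 2-fold for 59 of the 186 higher genes and 67 of the 222 lower genes, and it reached 1 for 29 and 32 of them. In 16 of the higher genes the basal library, and in 31 of the lower genes the high glucose library, held fewer than the 12 units (3 fragments) taken as the floor. At the count minimum the last gene left out was 1700122E12Rik with a mean of 49.75 and a log2 ratio of -0.11, and the first one kept was 2610206C17Rik with a mean of 50 and 0.87.

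**Figure D1:**
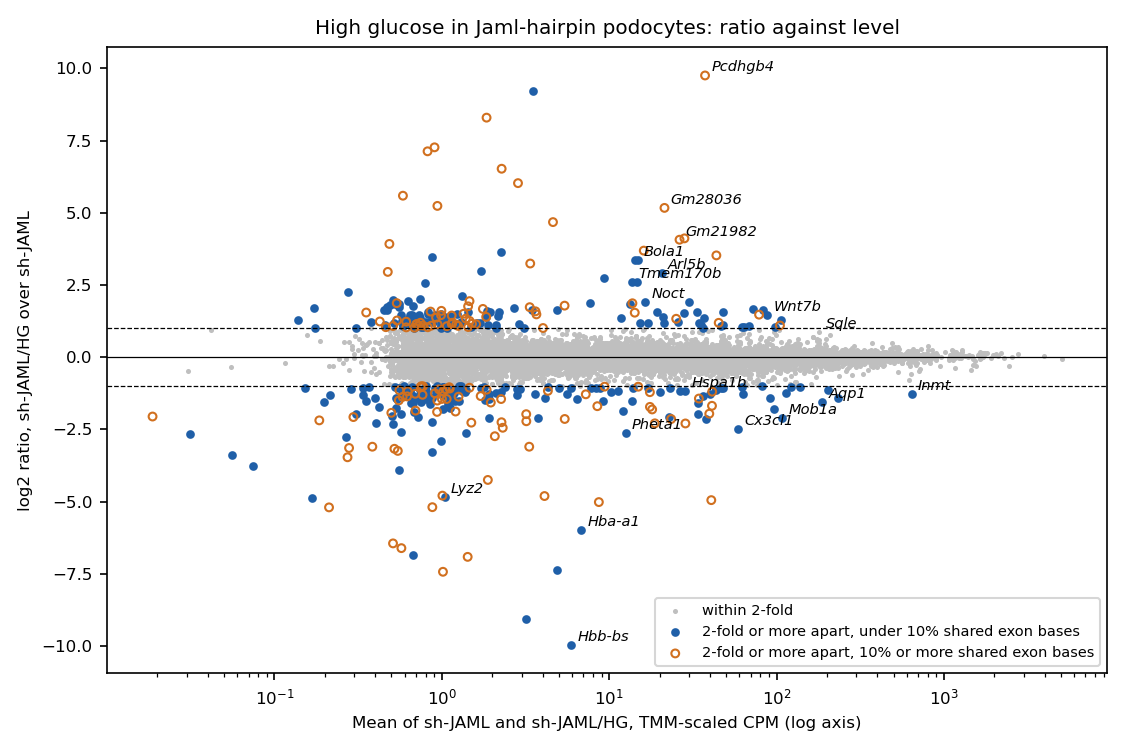
The log2 ratio of sh-JAML/HG over sh-JAML is plotted for each of the 14187 genes against the mean TMM-scaled CPM of both libraries on a log axis, with dashed lines at 2-fold. Grey points lie within 2-fold, filled blue and open orange points are the 408 genes further apart with under or at least 10% of their exon bases shared with another gene, and the cloud narrows as the level increases.

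Genes that share exon bases with a neighbour made up a large part of the extremes, and they are treated first because a read on a shared base can be counted for either gene. Of all genes, 17.2% had 10% or more of their exon bases in common with another gene, while 34.9% of the higher and 32.4% of the lower genes did. Protein-coding genes were 85.1% of all genes, 62.4% of the higher and 73.4% of the lower ones. The 4 genes Gm28036, Gm49320, Gm21982 and Gm38431 are predicted gene models with 89.2% to 100% of their exon bases shared, and their main partners are Cpne1, Map2k7, Rbm42 and Raver1, which except Map2k7 were chosen after their values were seen.

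Map2k7 encodes a kinase that activates JNK. Its level was 63.9, 19.1, 63.0 and 16.2 CPM, while Gm49320 stood at 0.553, 49.1, 3.07 and 53.2 CPM. Both high glucose libraries were thus low for the one model and high for the other. Within the Jaml-hairpin pair Map2k7 was 3.88-fold lower (3.44 to 4.39) and Gm49320 was 17.3-fold higher (13.3 to 22.6). Their locus, summed over 3 genes, was 1.04-fold higher (0.971 to 1.12).

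Cpne1, a calcium-dependent phospholipid-binding copine, had 66.5, 25.5, 62.7 and 19.5 CPM against 3.65, 40.7, 1.15 and 41.6 CPM for Gm28036. Added together, Cpne1 and Gm28036 were slightly lower with high glucose in the Jaml-hairpin pair, going from 63.8 to 61.1 CPM. Their locus also holds Rbm12. Summed over all 3 genes, it was 1.03-fold higher, with an interval that included 1 (0.965 to 1.09). For Rbm42, which encodes an RNA-binding protein, the levels were 51.4, 45.2, 98.3 and 56.2 CPM, and Gm21982 had 49.1, 50.2, 2.95 and 49.6, so that sh-JAML was the library apart from the other three. Raver1, whose product is a partner of a splicing repressor, had 146, 82.4, 66.7 and 143 CPM, and Gm38431 had 9.84, 50.5, 47.4 and 9.65. In sh-JAML and sh-JAML/HG, Rbm42 and Gm21982 summed to 101 and 106 CPM, and Raver1 and Gm38431 to 114 and 152 CPM. Their loci hold further genes. Summed over 3 and 7 genes, they were 1.01-fold and 1.21-fold higher in sh-JAML/HG than in sh-JAML.

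Counts were then added up per locus over all genes that share exon bases. Of the 137 genes apart that shared at least 10% of their exon bases, 17 belonged to a locus that was still 2-fold or more apart in the same direction, and 120 belonged to a locus within 2-fold. The loci numbered 12886, of which 125 were 2-fold or more higher and 161 lower. The gamma-protocadherin cluster, whose variable exons join to common ones and which encodes homophilic neuronal adhesion proteins, is the widest case. Pcdhgb4 went from 6 units in sh-JAML, under the floor of 12, to 6316 in sh-JAML/HG (862-fold higher, 207 to 6190). With counts of 8, 8488, 6 and 6316, it reached the count minimum only through the high glucose libraries. Pcdhgc3 was 11.5-fold higher (9.69 to 13.8) and Pcdhga9 was 30.9-fold lower (23.6 to 41.3). Shared exon bases joined 49 annotated genes into this locus, which need not all be gamma-protocadherins. Added over them, the locus held 8632, 20076, 8411 and 15523 units in the 4 libraries. It was 1.75-fold higher (1.66 to 1.85) in sh-JAML/HG. Where the partner is far more abundant the sum says little of the small gene. Exosc6, a subunit of the RNA exosome that lies wholly on shared bases, had 37.5, 5.28, 2.31 and 29.9 CPM and was 12.9-fold higher (9.66 to 18.0), while its summed locus was 1.05-fold higher.

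**Figure D2:**
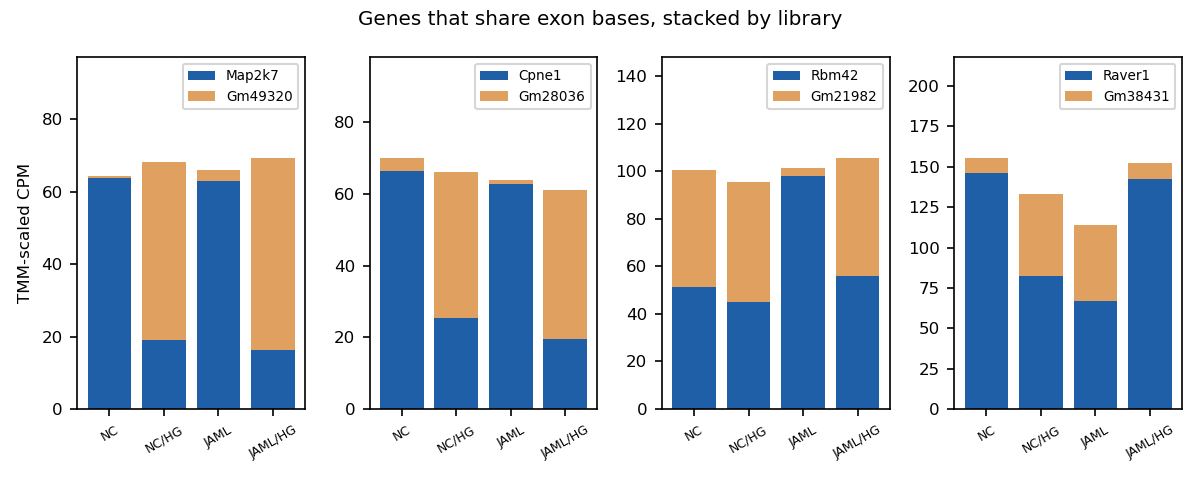
Stacked bars give the TMM-scaled CPM of 4 pairs of genes that share exon bases, in the libraries sh-NC, sh-NC/HG, sh-JAML and sh-JAML/HG (1 each). The split between the partners varied from library to library, as in Map2k7 at 63.0 and 16.2 CPM in sh-JAML and sh-JAML/HG. In the same libraries the summed height of that pair was 66.1 and 69.4 CPM, and that of Raver1 with Gm38431 was 114 and 152 CPM.

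Among well counted genes (mean count of at least 400) with under 10% shared exon bases, the most strongly higher were Ppp1r26, Bola1 and Arl5b. Ppp1r26 (chromosome 2, 28446800 to 28455508), a regulatory subunit of protein phosphatase, stood at 2.70, 3.01, 2.52 and 26.2 CPM, a ratio of 10.4-fold within the Jaml-hairpin pair (7.86 to 14.3). Bola1 (chromosome 3, 96196588 to 96219709), a mitochondrial protein of iron-sulfur cluster handling, had 1.37, 1.94, 2.60 and 27.0 CPM and was 10.3-fold higher (7.85 to 14.1). Arl5b (chromosome 2, 15049395 to 15082456), a small GTPase of the Golgi, had 5.88, 11.7, 4.77 and 36.3 CPM and was 7.59-fold higher (6.13 to 9.48). For all 3 genes sh-JAML/HG was the highest of the 4 libraries. Ppp1r26 (counts of 215, 281, 202 and 2214) and Bola1 (109, 181, 209 and 2287) reached the minimum of 400 only through that library. Its place as the highest is thus no separate result for these genes. Below that count, the noncoding RNA AL805899.1, chosen after its values were seen, had counts of 0, 3, 0 and 591. Nearly all of its reads came from sh-JAML/HG, and it entered the kept genes only through that library.

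Tmem170b and Xpnpep3 were high in both high glucose libraries. Tmem170b, a membrane protein, had 2.97, 30.5, 3.86 and 23.4 CPM and was 6.04-fold higher (4.73 to 7.75) in the Jaml-hairpin pair and 10.2-fold higher in the control-hairpin pair. Xpnpep3, a mitochondrial aminopeptidase, had 14.4, 45.5, 12.5 and 47.3 CPM and was 3.78-fold higher (3.29 to 4.36), beside 3.15-fold in the control-hairpin pair.

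A further group of higher genes was low in sh-JAML and not in sh-NC. Noct (chromosome 3, 51224447 to 51251644), the circadian phosphatase nocturnin, had 34.9, 37.0, 6.88 and 25.9 CPM and was 3.77-fold higher (3.12 to 4.57). Usp27x, a deubiquitinase gene on the X chromosome, had 12.7, 12.4, 3.28 and 12.1 CPM and was 3.69-fold higher (2.80 to 4.90). The level of sh-JAML/HG for both genes was thus nearer to that of the control-hairpin libraries than sh-JAML was.

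Gpr146 and 4933404O12Rik were low in sh-NC/HG and sh-JAML and high in the other two libraries. Gpr146, an orphan receptor known for its part in cholesterol metabolism in liver, had 20.7, 6.87, 4.16 and 25.3 CPM and was 6.07-fold higher (4.79 to 7.70). The uncharacterised 4933404O12Rik had 14.1, 3.72, 2.43 and 16.3 CPM and was 6.66-fold higher (4.93 to 9.18). High glucose therefore went with a higher level in one pair and a lower level in the other.

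On the lower side, Cx3cl1 and Mob1a each had a single library apart from the other three. Cx3cl1 (chromosome 8, 94772009 to 94782427) encodes fractalkine, a membrane-bound chemokine. It stood at 19.8, 20.7, 99.5 and 17.7 CPM and was 5.63-fold lower in sh-JAML/HG than in sh-JAML (5.03 to 6.30), with sh-JAML alone above the other libraries. Mob1a (chromosome 6, 83326016 to 83343776), an activator of the LATS kinases in the Hippo pathway, had 178, 147, 175 and 40.4 CPM and was 4.34-fold lower (4.03 to 4.68), with sh-JAML/HG alone below. Fam53b, a regulator of Wnt signalling, had 32.8, 44.2, 62.2 and 13.9 CPM and was 4.46-fold lower (3.92 to 5.08).

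Pheta1, whose product takes part in endosomal recycling, was low in both high glucose libraries, with 22.2, 3.84, 21.6 and 3.51 CPM, 6.14-fold lower (4.82 to 8.02) here and 5.78-fold lower in the control-hairpin pair. Fignl1, an ATPase of homologous recombination, had 28.8, 18.1, 36.7 and 8.74 CPM and was 4.20-fold lower (3.57 to 4.96). Rlf, a zinc finger gene, had 14.3, 64.5, 53.9 and 13.8 CPM and was 3.91-fold lower (3.43 to 4.47), while it was 4.50-fold higher in the control-hairpin pair. Xkr6, of the XK family of membrane proteins, had 7.73, 8.88, 6.11 and 1.41 CPM and was 4.31-fold lower (2.86 to 6.62). Usp29, Zfp7 and Gm29100 were between 4.41-fold and 4.89-fold lower, with 14.8%, 14.2% and 33.5% of their exon bases shared. Summed with their partners, the loci of these 3 genes were 4.39-fold, 1.91-fold and 2.82-fold lower, and the main partner of Usp29 held 1 unit in each library.

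In absolute terms the largest loss was that of Inmt (chromosome 6, 55170626 to 55175043), the indolethylamine methyltransferase. Its level was 682, 1042, 909 and 373 CPM, so sh-JAML/HG was the lowest library and 2.44-fold below sh-JAML (2.38 to 2.51), while sh-NC/HG was 1.53-fold above sh-NC. Tsc22d1, a leucine zipper gene, had 859, 523, 789 and 453 CPM and was 1.74-fold lower (1.70 to 1.79), beside 1.64-fold in the control-hairpin pair. The matrix glycoprotein gene Thbs1 had 3576, 1574, 2714 and 2181 CPM, 1.24-fold lower here (1.23 to 1.26), and Dag1, the dystroglycan that anchors podocytes to the basement membrane, had 1736, 1112, 1677 and 1232 CPM, 1.36-fold lower (1.34 to 1.38). Sqstm1, which encodes the autophagy receptor p62, was 1.49-fold lower in both pairs, with 17.3% of its exon bases shared.

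The largest gains were small ratios of very abundant transcripts. Mt1, a zinc-binding metallothionein, had 438, 119, 698 and 909 CPM and was 1.30-fold higher (1.27 to 1.33), against 3.68-fold lower in the control-hairpin pair. The long noncoding RNA Malat1 was 1.12-fold higher (1.1 to 1.13) and the non-muscle myosin gene Myh9 1.14-fold higher (1.13 to 1.16). Tuba1b and Ftl1, at 1.17-fold and 1.19-fold, share 27.4% and 34.6% of their exon bases with other genes.

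Genes of the response to hypertonic medium were mostly lower. Cells in hypertonic medium normally raise transporters and enzymes that bring in or make organic osmolytes through the factor NFAT5, and heat shock proteins of the HSP70 family belong to the same response. Of 20 measured genes of this list, 3 were above and 17 below their basal level, where 49.9% of all genes were above. Of the 20, 2 were 2-fold or more lower and none was as much higher, beside 1.56% and 1.31% of all genes. The median log2 ratio was -0.23 against -0.00036 over all genes. In the control-hairpin pair the median of the same list was -0.40. Without genes that share 10% or more of their exon bases the median was -0.097.

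Promoter windows are shown for the heat shock pair and the water channel of this list and for a cholesterol gene described further on, because their lists leaned to one side. They are the 250 bases before the gene start, from RefSeq on GRCm38.p6, written 5′ to 3′ on the gene's strand, with the searched motif in capitals. The heat shock element pair GAANNTTC occurs on either strand in 6.69% of all 32851 windows, the tonicity element core (GGAAA, 3 free bases, C, 1 free base, C) in 4.38% and the sterol element CACCCCAC in 2.58%. The Hspa1b window is chr17:34959239-34959488 on the minus strand, that of Hspa1a chr17:34972157-34972406 on the minus strand, that of Aqp1 chr6:55336049-55336298 on the plus strand and that of Hmgcs1 chr13:119690101-119690350 on the plus strand.
Hspa1b: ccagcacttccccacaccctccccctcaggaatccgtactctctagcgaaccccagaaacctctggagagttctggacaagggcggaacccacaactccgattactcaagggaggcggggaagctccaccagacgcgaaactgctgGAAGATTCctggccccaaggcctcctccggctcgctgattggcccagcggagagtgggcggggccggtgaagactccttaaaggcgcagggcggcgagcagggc
Hspa1a: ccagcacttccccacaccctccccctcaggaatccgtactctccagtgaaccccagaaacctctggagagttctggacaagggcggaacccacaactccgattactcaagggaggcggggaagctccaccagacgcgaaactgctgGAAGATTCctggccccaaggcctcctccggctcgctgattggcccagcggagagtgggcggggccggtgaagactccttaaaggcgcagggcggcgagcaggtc
Aqp1: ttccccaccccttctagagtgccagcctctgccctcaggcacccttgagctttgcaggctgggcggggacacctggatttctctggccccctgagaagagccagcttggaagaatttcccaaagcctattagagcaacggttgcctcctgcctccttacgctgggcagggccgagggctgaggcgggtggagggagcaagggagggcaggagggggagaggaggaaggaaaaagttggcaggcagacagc
Hmgcs1: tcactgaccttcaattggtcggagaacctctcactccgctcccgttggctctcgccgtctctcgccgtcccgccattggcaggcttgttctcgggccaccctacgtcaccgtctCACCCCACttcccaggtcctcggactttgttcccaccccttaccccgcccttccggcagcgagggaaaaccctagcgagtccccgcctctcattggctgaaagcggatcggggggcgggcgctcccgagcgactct

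The Hspa1b and Hspa1a windows are the same at 247 of 250 positions (98.8%), and both hold the heat shock element pair 104 bases before the gene start. Of the 22 windows of heat shock protein genes, 6 (27.3%) held this motif. Of the 23 windows of the hypertonic list, 2 held the tonicity element core, those of Nfat5 and Stk39, and the Aqp1 window held none. A match of letters is a description of the window and not a binding site.

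Aqp1 (chromosome 6, 55336432 to 55348555), the water channel aquaporin 1, was the lowest member. It stood at 292, 294, 280 and 94.9 CPM, a 2.95-fold lower level in the Jaml-hairpin pair (2.81 to 3.11) beside a ratio of 1.0 in the control-hairpin pair. The 3 other libraries were close together and sh-JAML/HG alone was low. Hspa1b, an inducible HSP70 gene (chromosome 17, 34956436 to 34959238), had 33.8, 17.1, 39.4 and 17.3 CPM and was 2.28-fold lower (2.01 to 2.58), beside 1.98-fold lower in the control-hairpin pair. Hspa1a, its near-identical neighbour, chosen after its values were seen, had 562 and 296 units in sh-JAML and sh-JAML/HG. Reads of these copies can be exchanged between them, so their separate values are uncertain.

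The osmolyte transporter and enzyme genes differed from one another. Slc5a3, which takes up myo-inositol, and S100a4, both chosen after their values were seen, were lower in the Jaml-hairpin pair. Slc5a3 had 44.8, 22, 42.0 and 22.1 CPM and was 1.90-fold lower (1.69 to 2.13), low in both high glucose libraries. S100a4, a calcium-binding protein, had 74.6, 145, 58.0 and 35.1 CPM and was 1.65-fold lower (1.51 to 1.82). Akr1b3, the aldose reductase that turns glucose into sorbitol (chromosome 6, 34302434 to 34317478), had 163, 197, 166 and 91.9 CPM and was 1.81-fold lower (1.71 to 1.91), while the control-hairpin pair was 1.21-fold higher in glucose. The taurine transporter Slc6a6 had 1469, 1068, 1326 and 1017 CPM and was 1.30-fold lower (1.28 to 1.33). Nfat5 itself was 1.03-fold lower with an interval that included 1 (0.981 to 1.07).

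Among 18 genes of solute and water channels, 2 were 2-fold or more lower and none was as much higher, with a median of -0.07. Over all genes 1.56% were as much lower and 1.31% higher. The 2 lower members were Aqp1, also counted in the hypertonic list, and Kcnj2, an inward rectifier potassium channel. Kcnj2 had 2.11, 0.429, 2.42 and 0.378 CPM, low in both high glucose libraries and 6.23-fold lower here (2.97 to 15.5). Its counts of 168, 40, 194 and 32 reached the count minimum only through the libraries without added glucose. Its low level in the others is thus no separate result. Of 21 heat shock protein genes, 8 were above and 13 below their basal level, with a median of -0.05. Hspa1b, also counted in the hypertonic list, was the 1 gene 2-fold or more apart, where 2.88% of all genes were.

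**Figure D3:**
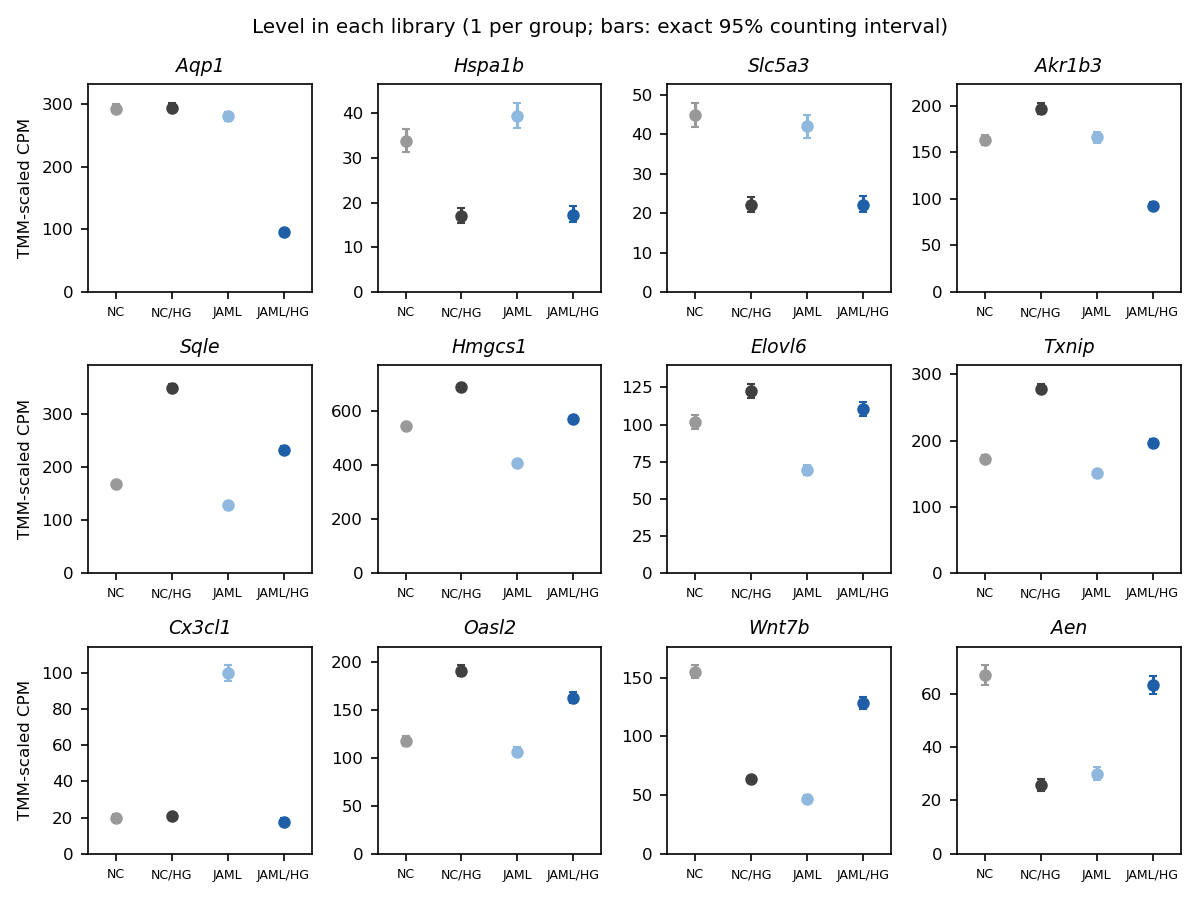
Each panel gives the TMM-scaled CPM of 1 gene in sh-NC, sh-NC/HG, sh-JAML and sh-JAML/HG (1 library each), from 0 upward, with bars for the exact 95% counting interval. Aqp1 is low only in sh-JAML/HG among these libraries, at 94.9 CPM, Hspa1b and Slc5a3 are low in both high glucose libraries, Sqle is high in both, and Cx3cl1 is high in sh-JAML, at 99.5 CPM.

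Cholesterol synthesis genes stood higher in high glucose as a group, by small ratios. Of 28 measured members 23 were above and 5 below their basal level, where 49.9% of all genes were above, none was 2-fold or more apart, and the median log2 ratio was 0.15 (0.05 in the control-hairpin pair). The summed level of the list was 6081, 6869, 4843 and 5536 CPM, lowest in sh-JAML, and the glucose library of the Jaml-hairpin cells lay between sh-JAML and sh-NC. Sqle, the squalene epoxidase (chromosome 15, 59315077 to 59331192), was the highest member with 168, 348, 128 and 233 CPM, 1.82-fold higher (1.73 to 1.91) beside 2.07-fold in the control-hairpin pair. The lowest was Msmo1, a sterol methyl oxidase, 1.20-fold lower (1.15 to 1.26).

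Further members of the list were chosen after their values were seen. Hmgcs1, which makes the precursor of mevalonate, had 543, 688, 407 and 571 CPM and was 1.40-fold higher (1.36 to 1.44). Insig1, which retains the sterol-sensing complex in the endoplasmic reticulum, was 1.32-fold higher (1.27 to 1.37), and Idi1, an isomerase of the pathway, 1.28-fold higher (1.22 to 1.34). The Hmgcs1 window shown above holds the sterol element 136 bases before the gene start, and 2 of the 26 windows of the list (7.69%), of Hmgcs1 and Acat2, held it. The regulators had ratios near 1. Srebf2, which drives this pathway, had 593, 812, 504 and 507 CPM, a ratio of 1.0 (0.978 to 1.03), and Srebf1, which drives fatty acid synthesis, had 91.4, 117, 97.9 and 99.4 CPM, a ratio of 1.01 (0.954 to 1.08).

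Fatty acid and triglyceride synthesis genes did not lean to either side. Of 26 measured, 12 were above and 14 below the basal level, none was 2-fold or more apart, and the median was -0.0013. Fasn, the fatty acid synthase, had 623, 688, 548 and 544 CPM, and its ratio of 1.01-fold lower had an interval of 0.981 to 1.03. Acaca, the first committed enzyme, was 1.01-fold lower (0.95 to 1.06), and Scd1, the main desaturase, 1.03-fold higher (0.991 to 1.07), so neither was apart from 1 beyond counting error. Elovl6, an elongase of saturated chains, was the highest member with 102, 123, 69.3 and 110 CPM, 1.59-fold higher (1.49 to 1.70). Lpin2, a phosphatidate phosphatase, was the lowest with 42.4, 41.7, 41.2 and 21.2 CPM, 1.94-fold lower (1.73 to 2.19).

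Lipid use and export gave no list with a member 2-fold or more apart. For fatty acid oxidation the median of 26 genes was -0.04, the 21 genes of lipid uptake and droplets 0.04, and the 9 genes of cholesterol efflux -0.0045. At the ends of these lists stood Ppargc1b, a mitochondrial coactivator, 1.41-fold higher (1.05 to 1.92), and Angptl4, an inhibitor of lipoprotein lipase, with 4.66, 2.11, 5.25 and 2.80 CPM and 1.87-fold lower (1.35 to 2.63). Plin4, a lipid droplet coat protein, had 11.2, 2.88, 9.32 and 13.3 CPM and was 1.43-fold higher (1.18 to 1.72), against 3.87-fold lower in the control-hairpin pair. Abca1, the cholesterol exporter, had 3.02, 0.771, 1.73 and 3.25 CPM and was 1.87-fold higher (1.23 to 2.89), and Nr1h2, a liver X receptor gene, was 1.44-fold lower (1.32 to 1.57).

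Glycolysis genes stayed close to their basal level in the Jaml-hairpin pair. The 29 measured genes had a median log2 ratio of 0.05 with 17 above and 12 below, and none was 2-fold or more apart, beside a median of 0.44 and 4 genes 2-fold or more higher in the control-hairpin pair. Ldha, the lactate dehydrogenase chosen after its values were seen, illustrates this with 333, 850, 294 and 301 CPM. Sh-NC/HG alone was high, and the Jaml-hairpin pair was 1.02-fold apart (0.988 to 1.06). Pfkfb4, which makes the activator of phosphofructokinase, was the highest member, with 5.03, 7.84, 4.93 and 8.16 CPM, 1.65-fold higher (1.28 to 2.13).

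All 8 measured genes of glucose sensing through the MondoA and ChREBP factors were above their basal level, where 49.9% of all genes were. Their median was 0.11, also 0.11 in the control-hairpin pair, where 5 of the 8 were above. Klf10 had the lowest ratio of the list in the Jaml-hairpin pair, and its counting interval included 1. Txnip (chromosome 3, 96557957 to 96561883), the thioredoxin-interacting protein whose transcription follows glucose phosphates, had 173, 278, 151 and 196 CPM, 1.30-fold higher (1.24 to 1.36) beside 1.61-fold, with 19.4% of its exon bases shared. Its relative Arrdc4 had 9.48, 16.1, 10.6 and 11 CPM, a ratio of 1.04 (0.854 to 1.25) beside 1.70. Mlx, the partner of both factors, was the highest of the list at 1.39-fold (1.13 to 1.71), with 19.3% shared bases and a summed locus at a log2 ratio of -0.09. Of 22 genes of the polyol, hexosamine and pentose phosphate pathways, 12 were above and none 2-fold or more apart, with Akr1b3 the lowest and Rpia, the ribose phosphate isomerase, the highest at 1.39-fold (1.21 to 1.62).

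The 22 sirtuin and AMPK genes had a median of -0.05, 8 above and 14 below, and none 2-fold or more apart. Sirt1 (chromosome 10, 63319005 to 63381704), the nuclear deacetylase that senses NAD, had 23, 18.2, 20.4 and 24.0 CPM and was 1.17-fold higher in the Jaml-hairpin pair (1.03 to 1.34), against 1.27-fold lower in the control-hairpin pair. Sirt5, a mitochondrial desuccinylase, was the highest member at 1.20-fold with an interval that included 1 (0.951 to 1.51). Prkab2, a regulatory subunit of AMPK, was the lowest with 31.8, 28.6, 32.1 and 22.2 CPM, 1.45-fold lower (1.28 to 1.63).

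Of 19 adhesion molecules related to JAML or its partners, 11 were above and 8 below, with a median of 0.01. Cxadr, the JAML ligand, chosen after its values were seen, had 419, 522, 374 and 381 CPM, a ratio of 1.02 (0.987 to 1.05). Over all genes 2.88% were 2-fold or more apart. Here the 1 such member was a second identifier of Igsf5 that lies wholly on exon bases of another gene. It went from 0 to 153 units, at least 12.1-fold higher against the floor, with a counting interval from 9.31, while the log2 ratio of its summed locus was 0.01.

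Podocyte marker genes had no member 2-fold or more apart among 22 measured, with a median of -0.02 and -0.35 in the control-hairpin pair. Podxl, the anionic podocalyxin of the cell surface, was the highest, with 18.9, 23.8, 10.1 and 15.2 CPM and a ratio of 1.5 (1.26 to 1.8). Synpo, the actin-associated synaptopodin, had 218, 246, 172 and 180 CPM, a ratio of 1.05 (1.0 to 1.1). Plce1, a phospholipase mutated in nephrotic syndrome, and Cd2ap, an adaptor of the slit diaphragm, were both chosen after their values were seen. Plce1 had 47.5, 24.9, 36.9 and 23.1 CPM, 1.59-fold lower (1.42 to 1.79), and Cd2ap had 295, 304, 301 and 219 CPM, 1.38-fold lower (1.33 to 1.43). The lowest member, Bmp7, a growth factor that podocytes secrete, was 1.85-fold lower on counts of 122 and 69, and its interval included 1 (0.993 to 3.60).

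Interferon-stimulated antiviral genes leaned downwards by small ratios in high glucose. Of 35 measured genes 2 were above and 33 below their level in sh-JAML, where 50.1% of all genes were below, and the median was -0.20 with none 2-fold or more apart. In the control-hairpin pair all 35 were above, 16 of them by 2-fold or more, and the median was 0.92. The summed level of the list was 4895, 9152, 4726 and 4212 CPM, with sh-NC/HG alone high. Interferon-gamma is part of the growth medium of this line and was withdrawn in all groups. Mx1, a dynamin-like antiviral GTPase, had 5.51, 34.2, 5.73 and 3.30 CPM and was 1.74-fold lower (1.28 to 2.37) in the Jaml-hairpin pair. Ifi44, chosen after its values were seen, had 83.1, 183, 86.4 and 52.0 CPM, 1.66-fold lower (1.54 to 1.79). Oasl2, an oligoadenylate synthetase-like protein, was the exception, with 118, 191, 107 and 163 CPM and 1.53-fold higher (1.45 to 1.61), beside 1.62-fold. Of the 27 antiviral promoter windows found, 10 (37.0%) held the interferon element (GAAA, 2 free bases, GAAA), against 2.98% of all windows.

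Interferon-gamma and antigen presentation genes had a median of -0.0064 over 33 members, with 15 above and none 2-fold or more apart. Cd74, the invariant chain, had 137, 94.5, 125 and 84.8 CPM and was 1.48-fold lower (1.39 to 1.57), nearly as in the control-hairpin pair (1.45-fold). H2-Aa, a class II chain, had 3.02, 0.364, 2.75 and 3.66 CPM, and its ratio of 1.33 had an interval that included 1 (0.941 to 1.94).

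NF-kB targets, cytokines and chemokines held 5 of the lower genes among 32 measured and none of the higher, where 1.56% of all genes were lower. Of these 5, Saa3, Cxcl5 and Nos2 reached the count minimum only through sh-NC/HG, so the count is no measure of the list. The list as a whole had a median of -0.07, with 11 members above the basal level. In the control-hairpin pair the median was 0.54 with 11 members 2-fold or more higher. The strongest count was that of Cx3cl1, given above. Cxcl1, a neutrophil chemokine chosen after its values were seen, had 7.72, 81.5, 7.95 and 3.30 CPM and was 2.41-fold lower (1.81 to 3.24). Saa3, an acute phase gene, went from 27 to 0 units, at least 2.37-fold lower against the floor of 3 fragments, with a counting interval that starts at 1.52. Cxcl5 went from 9 to 0 units and Nos2 from 5 to 0, both under the floor on either side. Complement C3, also chosen after its values were seen, had 41.2, 420, 27.7 and 25.6 CPM, a ratio of 1.08-fold lower (0.957 to 1.22) in the Jaml-hairpin pair.

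**Figure D4:**
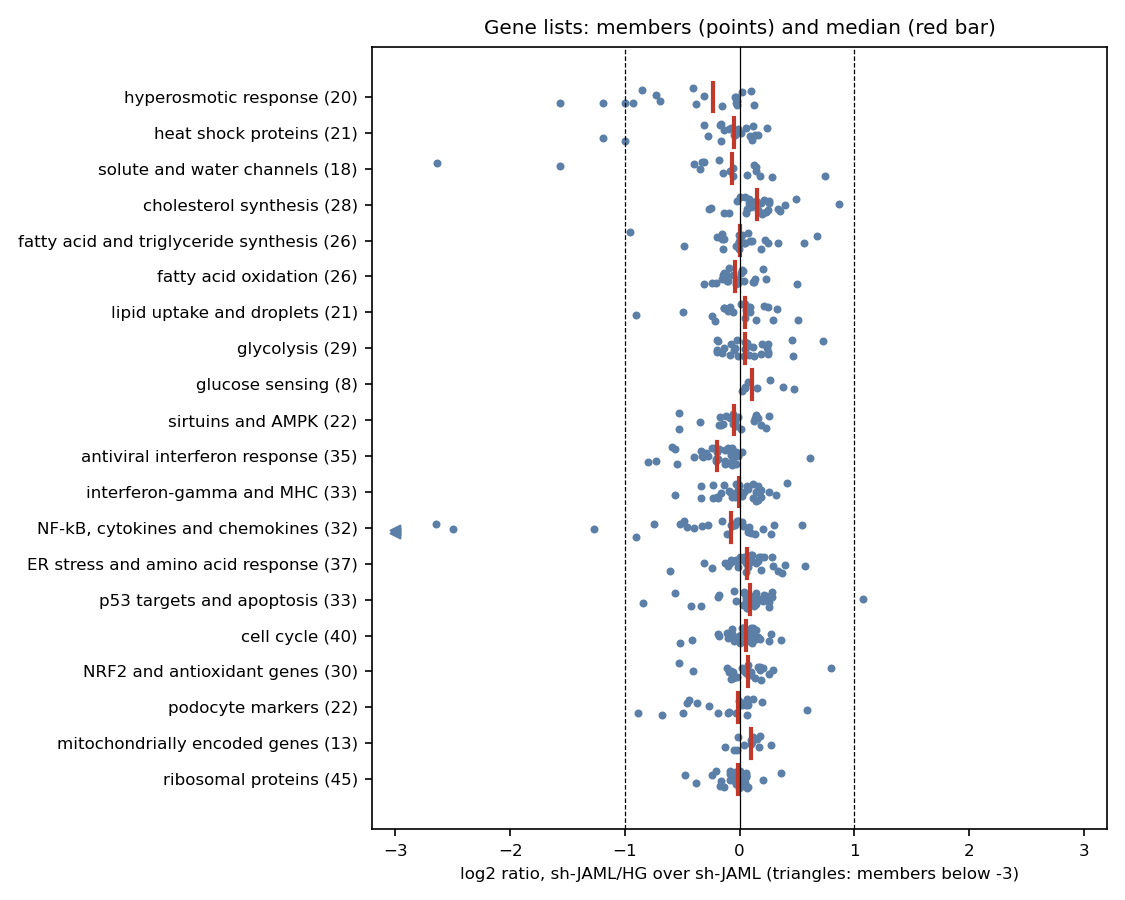
Points are the measured members of 20 gene lists (number in brackets) by their log2 ratio of sh-JAML/HG over sh-JAML, the red bar is the list's median, dashed lines mark 2-fold, and triangles mark members below -3. The medians ran from -0.23 for the hypertonic list to 0.15 for cholesterol synthesis, and single members such as Aqp1, Kcnj2 and Cx3cl1 lay far from their list.

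Growth factor genes showed Wnt7b, a Wnt ligand of the developing kidney (chromosome 15, 85535437 to 85582473), as the 1 member 2-fold or more higher of 37, whose median was 0.0036. It had 155, 63.5, 46.9 and 128 CPM, 2.74-fold higher in the Jaml-hairpin pair (2.54 to 2.95) and 2.44-fold lower in the control-hairpin pair, so sh-NC and sh-JAML/HG were the high libraries. Over all genes 1.31% were 2-fold or more higher and 1.56% lower. Among the 2 members 2-fold or more lower was Igfbp5, an insulin-like growth factor binding protein, with 40 and 10 units, 3.92-fold lower (1.12 to 49.5). Its counts were 8, 156, 40 and 10, so it reached the count minimum only through sh-NC/HG and lay under the floor in sh-JAML/HG.

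Of 33 p53 target and apoptosis genes, 25 were above their basal level, with a median of 0.09 against -0.34 in the control-hairpin pair. Over all genes 49.9% were above and 2.88% were 2-fold or more apart. Aen, an exonuclease induced by p53, was the 1 member 2-fold or more apart, with 66.9, 25.7, 29.9 and 63.1 CPM and 2.11-fold higher (1.92 to 2.33). The cell cycle inhibitor Cdkn1a and the death-promoting Pmaip1 were chosen after their values were seen and pointed in opposite directions. Cdkn1a had 711, 487, 657 and 799 CPM, 1.22-fold higher (1.19 to 1.25), and Pmaip1 had 100.2, 48.6, 93.3 and 51.9 CPM, 1.8-fold lower (1.67 to 1.94).

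Matrix and TGF-beta response genes were evenly spread, with 20 of 41 above, 1 higher and 1 lower by 2-fold or more, and a median of -0.0045. Over all genes 1.31% were as much higher and 1.56% lower. Both members apart were weakly counted. Mmp2, a gelatinase, went from 55 to 126 units, 2.15-fold higher (1.12 to 4.40), and Tgfb3 from 64 to 17 units, 3.80-fold lower (1.36 to 17.3), with 12.4% of its exon bases shared. Fibronectin, Fn1, and the TGF-beta target Ccn2 were chosen after their values were seen. Fn1 had 2580, 1373, 1976 and 2137 CPM and was 1.08-fold higher (1.07 to 1.1). Ccn2 had 342, 138, 183 and 182 CPM, a ratio of 1.0 (0.959 to 1.05).

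Antioxidant genes of the NRF2 list had no member 2-fold or more apart among 30, with 19 above and a median of 0.07. Gpx1, the cytosolic glutathione peroxidase, was the highest at 90.1, 91.5, 49.9 and 86.4 CPM, 1.73-fold higher (1.60 to 1.88), with sh-JAML alone low. Gclm, a subunit of the enzyme that starts glutathione synthesis, was 1.44-fold lower (1.35 to 1.53). In the list of autophagy and lysosome genes, 20 of 30 were above, where 49.9% of all genes were, with a median of 0.04. Mitf, a regulator of lysosomal genes, was the 1 member 2-fold or more higher, where 1.31% of all genes were. It had 3.77, 4.43, 1.67 and 5.26 CPM and a ratio of 3.14 (2.09 to 4.69).

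Lists of endoplasmic reticulum stress, cell cycle, immediate-early and actin genes held no member 2-fold or more apart. Over all genes 49.9% were above their basal level. Of the 37 stress and amino acid response genes 25 were above, with a median of 0.07. Psat1, an enzyme of serine synthesis, led them at 91.5, 94.2, 69.6 and 103 CPM, 1.48-fold higher (1.38 to 1.59), and Slc7a3, an arginine transporter, was lowest, with an interval that included 1 (1.52-fold lower, 0.967 to 2.51). Of the 40 cell cycle genes 29 were above, with a median of 0.06 beside 0.28, between Plk1, a mitotic kinase 1.28-fold higher (1.20 to 1.37), and Foxm1, a transcription factor of mitotic genes 1.43-fold lower (1.34 to 1.53). The 30 immediate-early genes had a median of 0.09 and the 28 actin and SRF target genes 0.06.

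Genes of the respiratory chain and the ribosome stayed within 2-fold. All 13 mitochondrially encoded genes lay between -0.13 and 0.27 on the log2 scale, 9 above, with a median of 0.10, whereas all 13 were below their basal level in the control-hairpin pair, with a median of -0.74. Their summed level was 19778, 13423, 20536 and 21212 CPM, so sh-NC/HG alone was low. The 35 nuclear respiratory chain genes had a median of -0.01 with 14 above, and the 45 ribosomal protein genes -0.01 with 20 above. The 18 histone genes that depend on replication had a median of -0.17 with 7 above. The 1 histone gene 2-fold or more apart, Hist1h3c, went from 71 to 29 units, 2.53-fold lower (1.08 to 7.68).

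Among the markers of other cell types, globin genes had the lowest ratios in the Jaml-hairpin pair. Hba-a1, an alpha globin gene, had 12.3, 0.300, 13.4 and 0.201 CPM and was 63.0-fold lower in sh-JAML/HG than in sh-JAML (27.4 to 262). Hbb-bs, a beta globin gene, had 10.6, 0.0321, 11.8 and 0 CPM and went from 947 to 0 units, at least 83.2-fold lower against the floor, with a counting interval from 67.2. Hba-a2 went from 780 to 4 units, the latter under the floor, 165-fold lower (36.5 to 8160). Hbb-bt went from 511 to 0, at least 44.9-fold lower against the floor, with an interval from 36.1. Both libraries without added glucose held globin reads, then, and both high glucose libraries held few or none. Alpha and beta globin copies are near identical, so the split within each pair is uncertain. Of the 16 erythroid genes, 7 were measured and 4 were 2-fold or more lower, which are these globins, where 1.56% of all genes were lower. These globins reached the count minimum only through the libraries without added glucose. The count and the list's median of -5.98 (-2.65 without a minimum) are therefore no measure of the list. Slc4a1, an anion exchanger that marks red cells, was at 0 in all 4 libraries, and so were Hbb-bh1 and Hbb-y. The part of any other cell or source in the globin values was not tested.

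Lyz2, a lysozyme gene of myeloid cells, had 2.14, 3.02, 2.02 and 0.0591 CPM. It had 162 and 5 units in the Jaml-hairpin pair, the latter under the floor, and was 28.6-fold lower (7.15 to 1707). It was the 1 of 4 measured leukocyte markers 2-fold or more apart, where 2.88% of all genes were. The summed level of these markers was 99.9, 88.3, 96.9 and 88.6 CPM. Endothelial markers summed to 32.3, 45.6, 29.1 and 34.1 CPM, with a median log2 ratio of 0.27 over 5 genes and with Erg, Kdr and Tie1 at 0 in all libraries, and mesangial and stromal markers to 2102, 1460, 1413 and 1448 CPM, with a median of -0.0099 over 7 genes and with Itga8, Lum and Ren1 at 0. Tubule markers summed to 1545, 1745, 1587 and 1250 CPM, with Umod, Slc34a1 and Calb1 at 0. Of the 6 measured tubule markers 1 was above its basal level, where 49.9% of all genes were. Cdh16, the kidney-specific cadherin, was the lowest at 560, 737, 623 and 437 CPM, 1.43-fold lower (1.39 to 1.46). Krt5, a keratin of basal epithelial cells chosen after its values were seen, had counts of 171, 35, 128 and 13, lower in both high glucose libraries. It reached the count minimum only through the libraries without added glucose. Whether cell composition takes part in these ratios was not tested, and fewer cells of a type cannot be told apart from less RNA per cell in bulk libraries.

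Finally, the genes apart in the Jaml-hairpin pair were set against those of the control-hairpin pair. Of the 186 genes 2-fold or more higher in sh-JAML/HG, 47 were also 2-fold or more higher in sh-NC/HG, which is 25.3% of the first set and 7.12% of the 660 in the second. Of the 222 lower genes, 37 were also lower there, 16.7% of this set and 7.97% of the 464 in the other. In opposite directions lay 28 genes that were higher here and lower there, and 51 that were lower here and higher there. Over all genes, 4.65% were 2-fold or more higher and 3.27% lower in the control-hairpin pair, beside 1.31% and 1.56% here. Some genes, such as Saa3 and Igfbp5, reached the count minimum only through sh-NC/HG, so that these counts depend in part on the minimum. Whether the 2 pairs respond differently could not be tested with 1 library per group.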

How the data were processed

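Per the labels, RNA of the 4 podocyte cultures was made into libraries by the TruSeq RNA guide. The submitters' processing notes name TopHat2 2.0.6, CASAVA 1.8 and the mouse build mm10. How reads were counted, and on which annotation, is not stated in the sources used here. The deposited table gives the authors' estimated count per Ensembl gene, with no scaling between libraries. Columns are named by condition, and those naming no hairpin were taken as sh-NC and sh-NC/HG. One line without a gene was left out, and 27916 genes were 0 in all 4 libraries. In every library the values 4, 8 and 12 were 1.51 to 2.1 times as frequent as nearby even values, so 4 units were taken as 1 fragment, and intervals and floors use values divided by 4. They cover counting error only, since PCR copies are not independent molecules.

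GENCODE M21 matched 55480 genes (913 unmatched) and gave symbols, GRCm38 positions and shared exon bases. TMM factors came from edgeR 4.0.16 (R 4.3.3). A prior count of 1 went into each log2 ratio. No model was fitted and no test made. The calculation of ratios and intervals was checked on simulated counts with known ratios. These had counting error only, at the same library sizes and 4 units per fragment. They held no reads exchanged between genes and no spread between libraries, so the check does not cover those limits. Alternatives were DESeq2 1.42.0 size factors, other scalings, minimums and prior counts, and genes without shared exons. A minimum over the 2 libraries, a 1.5-fold limit and summed loci were added after seeing the data. Promoter windows came from RefSeq (GRCm38.p6) and matched 78 of 123 named genes.

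Named genes were a fixed set (Jaml, Srebf1, Srebf2, Sirt1, Fasn, Acaca, Scd1, Txnip, Arrdc4, Nfat5, Nphs1, Wt1 and Synpo), the 15 highest and 15 lowest ratios at a mean count of at least 400, the 8 largest gains and losses in CPM, and the ends of each of 35 lists (up to 4 members 2-fold or more apart on each side, otherwise the highest and the lowest). Some genes that this rule names are not reported here. The members and lists were chosen with earlier results of these data known. Python 3.11.15 with scipy 1.17.1, pandas 2.3.3 and numpy 2.4.6 gave the other values, and matplotlib 3.10.9 drew the figures.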

Additional observations from a re-analysis of the deposited data

Results flagged for a closer look

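The following named genes, each 2-fold or more apart in both pairs, lay on opposite sides of their basal level in the Jaml-hairpin pair and in the control-hairpin pair, each value being a log2 ratio of the high glucose over the basal library. With 1 library per group the difference between the pairs was not tested. Higher in sh-JAML/HG and lower in sh-NC/HG were Exosc6 (3.69 against -2.83), 4933404O12Rik (2.74 against -1.92), Gpr146 (2.60 against -1.59), Wnt7b (1.45 against -1.29) and Aen (1.08 against -1.38). Lower in sh-JAML/HG and higher in sh-NC/HG were Pcdhga9 (-4.95 against 2.08), Saa3 (-4.88 against 4.59), Gm38431 (-2.30 against 2.36), Zfp7 (-2.14 against 1.77), Igfbp5 (-1.97 against 3.90), Rlf (-1.97 against 2.17) and Tgfb3 (-1.93 against 1.02). Exosc6, Pcdhga9, Gm38431, Zfp7 and Tgfb3 share 10% or more of their exon bases with another gene. Saa3 and Igfbp5 reached the count minimum only through sh-NC/HG, the library where they are high. Both rest on counts at or under the floor in sh-JAML/HG, where the fitted log2 value of Saa3 depends on the prior count.

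List medians that were at least 0.1 from 0 in both pairs and of opposite sign were those of antiviral interferon response genes (-0.20 against 0.92), mitochondrially encoded genes (0.10 against -0.74), tubule markers (-0.12 against 0.13) and leukocyte markers (-0.12 against 0.12). Other lists had medians of opposite sign with at least 1 of them nearer to 0, such as NF-kB targets, cytokines and chemokines (-0.07 against 0.54) and p53 targets (0.09 against -0.34).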

How the results depend on the processing

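DESeq2 size factors, library totals and TMM factors over the 2 libraries moved the median of all genes by less than 0.01 and left both counts of genes apart within 1.5 times their value. With the minimum raised to a mean count of 200, 61 genes were 2-fold or more higher and 78 lower, and without a minimum 3244 and 3975. Among genes with under 10% shared exon bases 121 were higher. A limit of 1.5-fold, added after seeing the data, gave 506 and 593. The share of higher genes among those apart ran from 43.9% to 47.7% over the settings that count genes. Summed loci, also added after seeing the data, gave 125 higher and 161 lower. The median of leukocyte markers turned to 0.0095 at a mean count of 200 and was -2.38 without a minimum and -0.24 without shared exons. Endothelial markers turned to -0.17 without a minimum and had 0.16 without shared exons. Erythroid genes had -5.40 at a prior count of 10, -5.49 with genes at 0 set to their bound, and -2.65 without a minimum. Without a minimum, tubule markers had -0.00055 and histones -0.058. The hypertonic list had -0.097 without shared exons. The cause was not tested. The minimums and the shared-exon setting cannot change the ratio of a single gene, and the scalings shifted all genes nearly alike. Only the prior count of 10 could move single ratios, and the 121 named genes measured then stayed within their counting interval. No paired analysis was possible because each group had 1 library. Depth limits the weakly counted genes, as in the 29 higher and 32 lower genes whose counting interval reached 1.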
